A study of Mus musculus with 6 samples.

Results

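Purkinje cells are the large GABAergic output neurons of the cerebellar cortex, and 10 genes that are widely used to identify them were followed here in whole newborn cerebellum: the transcription factor genes Skor2, Foxp2, Rora and Ebf2, the calcium buffer genes Calb1 and Pvalb, the Purkinje cell protein genes Pcp2 and Pcp4, and the calcium signalling genes Car8 and Itpr1. Each symbol was looked up in the gene column of the deposited expression table, and each named 1 locus, which gave 10 of the 23793 loci in all. Expression was compared between 3 libraries of Zeb2 conditional knockouts (cKO; Zeb2 f/f; hGFAP-cre) and 3 control libraries (Zeb2 f/+; hGFAP-cre), all from cerebellum taken at postnatal day 0. Both groups carried the Cre transgene, and the control animals carried 1 floxed Zeb2 allele. The human GFAP promoter drives Cre in radial glia and neural progenitors, and whether Purkinje cells themselves recombined is not stated in the labels. The labels do not say that each library came from a separate animal, so the p-values below measure the spread between these libraries.

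Purkinje cells arise from progenitors of the cerebellar ventricular zone that express Ptf1a, leave the cell cycle before birth and settle under the external granular layer, where at birth they have only begun to grow dendrites. They are known for a heavy load of calcium-binding proteins and for calcium release from internal stores through the inositol trisphosphate receptor, which follows activation of metabotropic glutamate receptors. Purkinje cells also secrete Sonic hedgehog, the mitogen of granule neuron progenitors, and their dendrites later grow along the fibres of Bergmann glia. Several of the 10 genes are also used by other cells, for example Rora in molecular layer interneurons, Pvalb in those interneurons and in fast skeletal muscle, and Foxp2 in deep cerebellar nuclei, so a whole-tissue value is not a value per Purkinje cell.

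Each value in the deposited table was taken to be FPKM, a fragment count divided by transcript length and library size, and these summed to between 497542 and 524474 per library. The Zeb2 locus stood at 6.19, 3.89 and 5.81 FPKM in the cKO libraries, against 11.4, 9.52 and 7.995 FPKM in the control libraries, so the groups lay apart (log2 fold change -0.77, limma adjusted p = 0.107, exact two-sided permutation p = 0.1, the smallest that 3 against 3 libraries can give). Xist was at 144 ± 3.05 FPKM in cKO and 0.394 ± 0.105 FPKM in control libraries (SD, n = 3 each), and the Y-linked gene Eif2s3y at 0.0766 ± 0.0435 FPKM in cKO and 35.8 ± 1.36 FPKM in control libraries, so the sex of the animals and their genotype cannot be told apart. All log2 fold changes are cKO minus control on the log2(FPKM + 1) scale, a scale that understates changes of genes with low values, and a gene is said to have risen or fallen only where its limma p, Benjamini-Hochberg adjusted over the 13612 loci tested, was at most 0.05.

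One Purkinje gene fell and none rose. Pvalb, the gene of the calcium buffer parvalbumin, averaged 2.40 ± 0.247 FPKM in cKO and 4.61 ± 0.474 FPKM in control libraries (SD, n = 3 each), 52.05% of the control mean. The other 9 genes all had positive log2 fold changes, between 0.04 for Pcp2 and 0.23 for Skor2, and none of these passed the threshold. All 10 genes passed the filter on low values, which asked for 1 FPKM or more in 3 or more of the 6 libraries. Over all tested loci, 0.573% passed, 0.331% lower and 0.242% higher in cKO. With the loci of small RNAs left out these shares were 2.47%, 1.51% and 0.957%, and of the 10 genes again Pvalb alone passed (adjusted p = 0.0113). Over the 10 genes the median log2 fold change was 0.169, against -0.0095 over all tested loci, and 9 of 10 were positive, against 47.0% of the loci tested. Groups did not overlap for 6 genes higher in cKO (Calb1, Pcp4, Foxp2, Rora, Skor2 and Ebf2) and for 1 gene lower in cKO (Pvalb), where 10.3% and 13.6% of all tested loci were apart in these directions. Before adjustment, 5 of the 10 genes had a limma p under 0.05, as had 17.6% of the tested loci. These were Foxp2, Rora, Car8 and Skor2, higher in cKO (7.82% of loci), and Pvalb, lower in cKO (9.79%). The 10 genes were chosen with earlier results of these data known, so the shares beside them are description and no test.

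**Figure D1:**
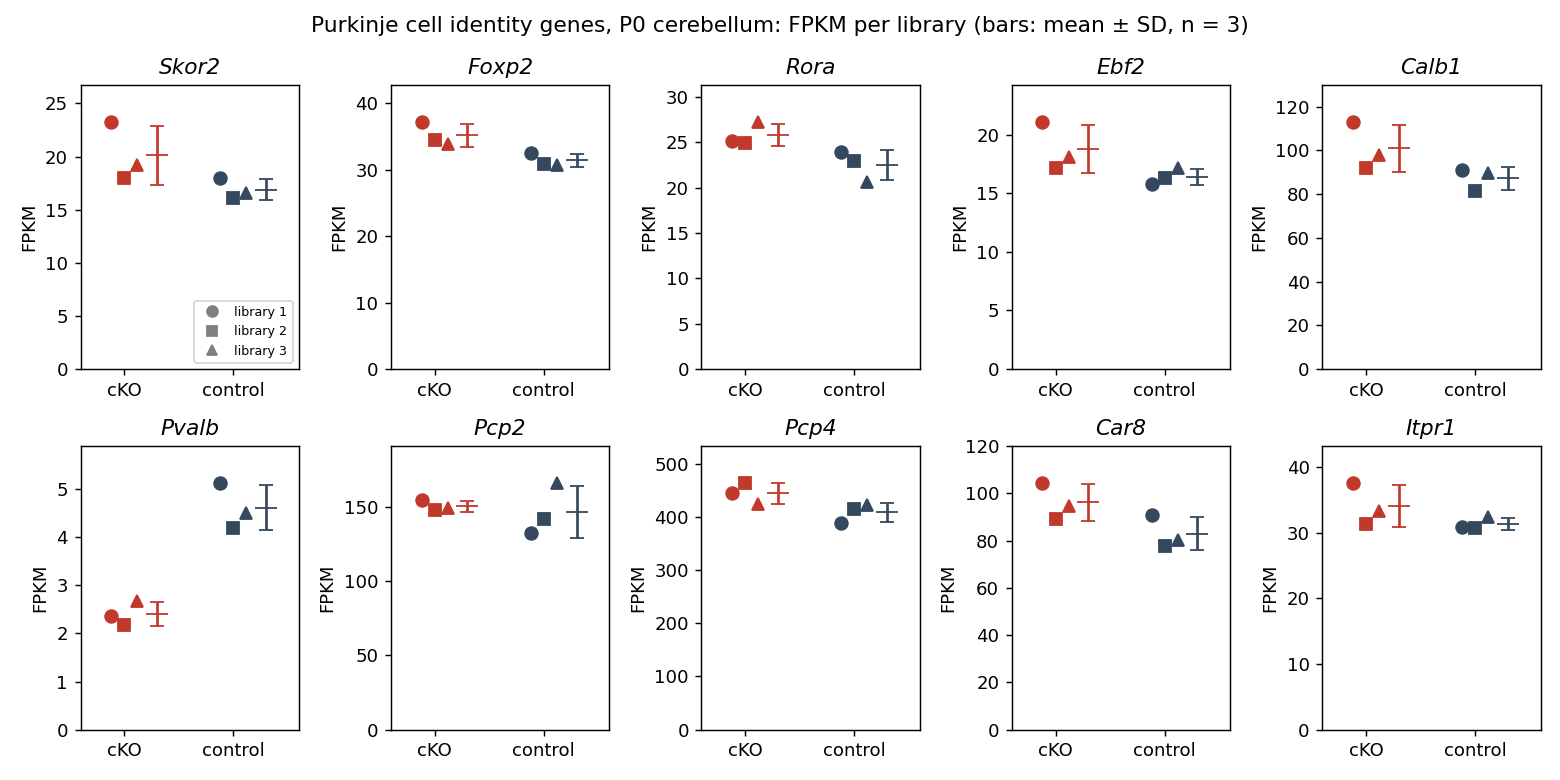
FPKM of the 10 Purkinje cell identity genes in each library (y axes start at 0 and differ between panels), with cKO libraries in red on the left and control libraries in grey-blue on the right; marker shapes give the library number within its group and bars the mean ± SD of 3 libraries. Pvalb is the panel in which all cKO values, 2.18 to 2.66 FPKM, lie far under all control values, 4.20 to 5.13 FPKM.

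Skor2 encodes a corepressor, also called Corl2, that young Purkinje cells need to keep their identity. Its locus (GRCm38 chromosome 18, 76856405 to 76900342, plus strand) was at 23.3, 17.97 and 19.2 FPKM in cKO, against 17.97, 16.1 and 16.6 FPKM in control libraries. The lowest cKO library, cKO 2, and the highest control library, control 1, differed by 0.0036 FPKM, so the groups lay apart only just. The log2 fold change was 0.23 (SE 0.10, 95% interval 0.00025 to 0.469, limma adjusted p = 0.283).

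Foxp2, a forkhead transcription factor of migrating and maturing Purkinje cells (chromosome 6, 14901349 to 15441977, plus strand), was at 37.2, 34.5 and 33.9 FPKM in cKO, against 32.6, 30.9 and 30.8 FPKM in control libraries. Every cKO library was above every control library, by at least 1.34 FPKM, and the log2 fold change was 0.16 (SE 0.05, 95% interval 0.03 to 0.29, limma adjusted p = 0.217). Rora encodes the orphan nuclear receptor whose loss causes the Purkinje cell defect of the staggerer mouse. Its locus (chromosome 9, 68653786 to 69388246, plus strand) was at 25.2, 24.96 and 27.2 FPKM in cKO, against 23.9, 22.9 and 20.6 FPKM in control libraries. These groups were apart too, by 1.02 FPKM, with a log2 fold change of 0.19 (SE 0.07, limma adjusted p = 0.230).

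Ebf2, a helix-loop-helix factor needed for Purkinje cell survival and for the parasagittal pattern of the cortex (chromosome 14, 67233292 to 67430918, plus strand), was at 21.1, 17.2 and 18.1 FPKM in cKO, against 15.8, 16.3 and 17.1 FPKM in control libraries. The library cKO 1 was the high one, and the lowest cKO library, cKO 2, was 0.0214 FPKM above the highest control, control 3 (log2 fold change 0.18, SE 0.08, limma adjusted p = 0.319).

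Calb1, the gene of calbindin and the standard histological label of Purkinje cells, was at 113, 92.2 and 97.9 FPKM in cKO, against 90.98, 81.3 and 89.5 FPKM in control libraries (chromosome 4, 15881264 to 15908064, plus strand). All cKO values were above all control values, the nearest pair by 1.2 FPKM. The log2 fold change was 0.21 (SE 0.09, 95% interval -0.0017 to 0.413, limma adjusted p = 0.286).

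Parvalbumin is a fast calcium buffer of the EF-hand family whose expression in the cerebellum builds up after birth, and its level here was the lowest of the 10 genes on the FPKM scale, which is per transcript length. The Pvalb locus (chromosome 15, 78191114 to 78206400, minus strand) gave 2.36, 2.18 and 2.66 FPKM in cKO, against 5.13, 4.20 and 4.51 FPKM in control libraries. Each cKO library stood at least 1.53 FPKM under the lowest control library, a gap several times the SD within either group. The log2 fold change of FPKM + 1 was -0.72 (SE 0.09, 95% interval -0.94 to -0.51, limma adjusted p = 0.0331), and -0.94 with a pseudocount of 0.01. Sets of libraries that share a step pattern in their low values appear, judged from the values alone, to have been processed together. The Pvalb difference was -0.712 in the set of cKO 1, cKO 2, control 2 and control 3. In the set of cKO 3 and control 1 it was -0.742. Among cKO 1, cKO 2, control 1 and control 2, which carry the first run of accession numbers, it was -0.789. Between cKO 3 and control 3, which carry the higher run of numbers, it was -0.588. The call rested on the full set of libraries: with any 1 of the 6 left out the adjusted p lay between 0.0524 (without cKO 3) and 0.124 (without control 2), with log2 fold changes of -0.78 to -0.66. The call was also lost with the library number as a block, with the deposit as a covariate and with no filter on low values (limma adjusted p = 0.147, 0.0848 and 0.0841). The deposit was read from the runs of accession numbers alone.

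**Figure D2:**
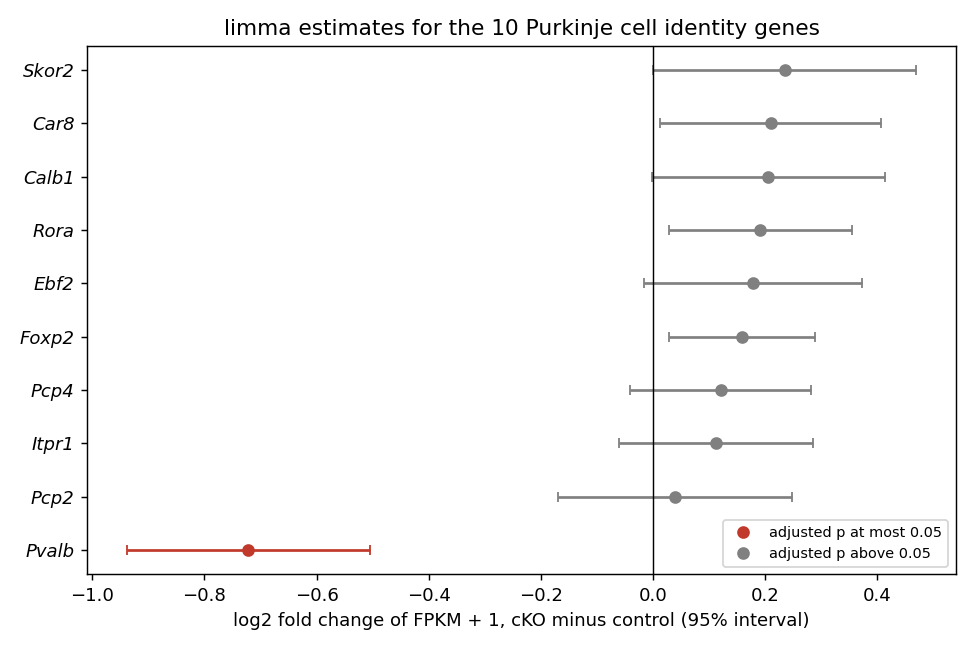
Log2 fold change of FPKM + 1 (x axis, cKO minus control) with its 95% interval from limma for each of the 10 genes, sorted by size; red marks an adjusted p of at most 0.05. Pvalb lies at -0.72 and the other 9 genes between 0.04 and 0.23.

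Pcp4, the gene of a small calmodulin-binding peptide, had the highest FPKM of the 10 (chromosome 16, 96467606 to 96525793, plus strand), at 445, 464 and 424 FPKM in cKO, against 389, 414 and 423 FPKM in control libraries. The groups were apart by 1.46 FPKM between cKO 3 and control 3, and the log2 fold change was 0.12 (SE 0.07, limma adjusted p = 0.414). Its exons share 243 bases with Igsf5 on the same strand, a gene at no more than 0.413 FPKM in any library.

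Pcp2, also called L7, encodes a modulator of G protein signalling and is the most Purkinje-specific gene of the list in the adult brain. Its locus (chromosome 8, 3623371 to 3625545, minus strand) was at 154, 148 and 149 FPKM in cKO, against 132, 142 and 166 FPKM in control libraries. The cKO values all lay inside the range of the controls (log2 fold change 0.04, SE 0.09, 95% interval -0.17 to 0.25, limma adjusted p = 0.852), and the sign turned to -0.031 without control 1. Of the exon bases annotated to Pcp2, 941 (51.5%) also belong to exons of Pet100, a mitochondrial assembly factor gene on the opposite strand. Whether counting used strand was not given in the sources used here; without strand, reads of both genes cannot be told apart. Pet100 itself was listed at 10.3, 9.80 and 9.98 FPKM in cKO, against 10.6, 11.02 and 12.2 FPKM in control libraries.

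RefSeq promoter windows, 250 bases before to 50 after a transcription start (GRCm38.p6), were matched for 4 of the 10 genes: Pvalb, Pcp2, Pcp4 and Rora. Printed here are the furthest upstream windows of Pvalb, the gene that fell, and of Pcp4 and Pcp2, the genes with the highest levels. Capitals mark matches, on either strand, to CACCTG, the E-box bound by Zeb factors, to AGGTCA, the core site of nuclear receptors such as RORA, or to CCCNNGGG, the core of the Ebf site.
Pvalb, chr15:78206351-78206650, minus strand: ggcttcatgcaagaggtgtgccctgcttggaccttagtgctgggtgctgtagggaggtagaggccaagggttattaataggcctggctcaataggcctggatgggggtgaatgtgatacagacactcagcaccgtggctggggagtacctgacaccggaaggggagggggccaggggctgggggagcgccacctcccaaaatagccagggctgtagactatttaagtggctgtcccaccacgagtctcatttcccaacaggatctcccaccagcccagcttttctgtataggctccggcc
Pcp4, chr16:96467356-96467655, plus strand: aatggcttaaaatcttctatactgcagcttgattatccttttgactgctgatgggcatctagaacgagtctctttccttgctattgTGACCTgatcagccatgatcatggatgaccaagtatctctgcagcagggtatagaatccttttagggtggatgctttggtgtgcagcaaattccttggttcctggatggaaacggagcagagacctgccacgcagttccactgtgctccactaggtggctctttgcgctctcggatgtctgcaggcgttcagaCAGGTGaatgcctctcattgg
Pcp2, chr8:3625498-3625797, minus strand: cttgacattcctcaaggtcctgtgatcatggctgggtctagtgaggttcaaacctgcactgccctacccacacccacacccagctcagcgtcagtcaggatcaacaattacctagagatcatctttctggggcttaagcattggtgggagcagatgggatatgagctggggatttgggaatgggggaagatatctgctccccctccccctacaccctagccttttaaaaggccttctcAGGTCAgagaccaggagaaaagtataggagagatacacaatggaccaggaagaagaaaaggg

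The Pcp4 window held 1 match to CACCTG, on the minus strand within the transcribed part, and 1 to AGGTCA upstream of the start. The Pcp2 window held 1 match to AGGTCA, its first base 12 bases before the start, and the upstream windows of Pvalb and Rora held none of the 3 motifs. Over 27025 genes, taking the furthest upstream window of each, 20.05% held CACCTG, 15.98% AGGTCA and 13.4% CCCNNGGG, so matches of this kind are frequent. The second Pvalb window held 1 match to CCCNNGGG, and of the 3 other Pcp2 windows 1 held CACCTG and the others AGGTCA. The Pcp2 windows overlap, and the AGGTCA of the window chr8:3625423-3625722 is the same site as that of the printed window. Matches describe letters in these windows and say nothing of binding.

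Car8 encodes a catalytically inactive relative of the carbonic anhydrases that binds the inositol trisphosphate receptor and lowers its affinity for its ligand, and Itpr1 encodes that receptor. Car8 (chromosome 4, 8143362 to 8239041, minus strand) was at 105, 89.2 and 94.7 FPKM in cKO, against 90.7, 77.9 and 80.4 FPKM in control libraries. The lowest cKO library, cKO 2, was under the highest control library, control 1, so the groups overlapped (log2 fold change 0.21, SE 0.08, limma adjusted p = 0.264). Itpr1 (chromosome 6, 108213096 to 108551109, plus strand) was at 37.6, 31.4 and 33.3 FPKM in cKO, against 30.9, 30.8 and 32.5 FPKM in control libraries. Here the groups overlapped as well, since cKO 2 was under control 3 (log2 fold change 0.11, SE 0.07, limma adjusted p = 0.472).

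Among the libraries, cKO 1 stood high. It held the highest value for 6 of the 10 genes (Calb1, Car8, Itpr1, Foxp2, Skor2 and Ebf2), whereas it was the highest library at 18.7% of all tested loci. Without it, 9 of the 10 genes still had positive log2 fold changes, with a median of 0.119, and the median over the other leave-one-out fits lay between 0.145 and 0.193. Without control 1, 8 were positive, since Pcp2 changed sign. Within each of the processing sets, all 8 genes other than Pvalb and Pcp2 had positive differences, between 0.0565 and 0.308. The sum of the 10 genes was 900 to 963 FPKM in cKO and 830 to 881 FPKM in control libraries, and Pcp4 and Pcp2 made up most of it. In a whole-tissue library, a change in the number of Purkinje cells and a change in their RNA per cell cannot be told apart, and FPKM values are shares, so they also move when RNA of other cells is gained or lost.

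**Figure D3:**
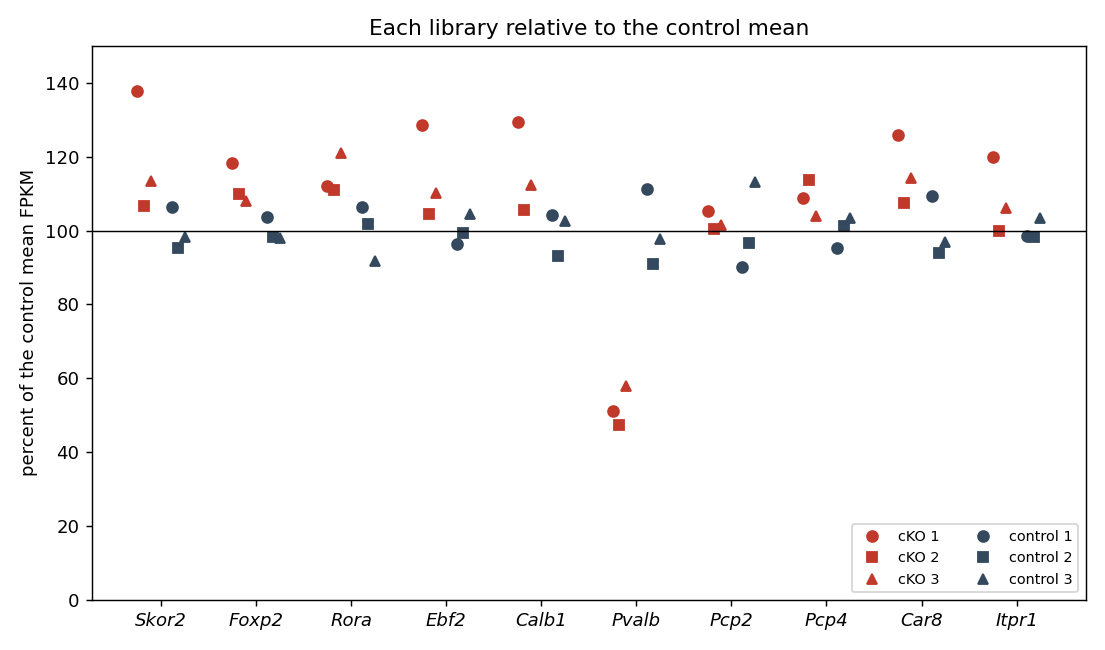
FPKM of each library as a percentage of the control mean of the same gene (y axis), with cKO libraries in red on the left of each gene and control libraries in grey-blue on the right. Library cKO 1 (red circles) is the highest for 6 genes, while the cKO mean of Pvalb lies at 52.05% of its control mean.

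Other genes of Purkinje cells were taken as lists beside these 10. Of 11 further transcription factor genes, none rose or fell, 8 had positive and 3 negative log2 fold changes, and their median was 0.0765. Lhx5, a LIM homeodomain factor that acts with Lhx1 in early Purkinje cells, had the smallest p, at 13.7 ± 0.592 FPKM in cKO and 16.7 ± 0.937 FPKM in control libraries (log2 fold change -0.27, limma adjusted p = 0.104), with the groups apart. Lhx1 was at 31.0 ± 0.393 FPKM in cKO and 30.0 ± 1.21 FPKM in control libraries. Nr2f2, an orphan nuclear receptor, and Foxp4, a relative of Foxp2, had log2 fold changes of 0.23 and 0.20 (limma adjusted p = 0.166 and 0.241), and Ebf1 one of 0.18 (adjusted p = 0.296).

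Of 17 genes of the calcium and metabotropic glutamate signalling pathway of Purkinje cells, none rose or fell, 12 were positive and 5 negative, and the median was 0.0831. Plcb4, a phospholipase of the pathway, was at 34.1 ± 2.66 FPKM in cKO and 33.8 ± 2.28 FPKM in control libraries. The T-type calcium channel gene Cacna1g had a log2 fold change of 0.26 (SE 0.08, limma adjusted p = 0.179), and the kinase gene Camk2a one of 0.23 (SE 0.07, adjusted p = 0.186). Plcb3, a phospholipase of one set of Purkinje stripes, was at 11.1 ± 1.03 FPKM in cKO and 13.2 ± 0.460 FPKM in control libraries, with a log2 fold change of -0.24 (adjusted p = 0.182).

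Of 17 other markers 16 were tested, and none rose or fell, with 13 positive, 3 negative and a median of 0.157. Dner, a Notch ligand that Purkinje cells present to Bergmann glia, was at 181 ± 7.29 FPKM in cKO and 156 ± 4.39 FPKM in control libraries (log2 fold change 0.21, SE 0.06, limma adjusted p = 0.131). Rgs8, a regulator of G protein signalling, was at 14.7 ± 0.122 FPKM in cKO and 12.9 ± 0.139 FPKM in control libraries (adjusted p = 0.141). The GABA synthesis genes Gad1 and Gad2 had log2 fold changes of 0.19 and 0.33 (adjusted p = 0.206 and 0.180), with every cKO value above every control value for both. Shh, the mitogen that Purkinje cells secrete, was at 2.48 ± 0.435 FPKM in cKO and 2.05 ± 0.191 FPKM in control libraries (adjusted p = 0.430). Ppp1r17 stood at 0.176 to 0.479 FPKM in the 6 libraries and was not tested.

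Of 10 genes of the embryonic Purkinje cell stripes, again none rose or fell, with 7 positive, 3 negative and a median of 0.173. The ephrin gene Efna5 and the neuropilin gene Nrp2 both had log2 fold changes of 0.36 (limma adjusted p = 0.142 and 0.146), and the protocadherin gene Pcdh10 one of 0.20 (adjusted p = 0.188), each with the groups apart. En1, a homeobox gene of cerebellar patterning, was at 16.9 ± 0.993 FPKM in cKO and 13.9 ± 2.18 FPKM in control libraries (adjusted p = 0.278).

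Relatives of the 10 genes gave 15 tested loci of 18, none of which passed, 12 positive and 3 negative. Foxp1, Foxp4, Ebf1 and Ebf3, all positive, are also among the 11 further transcription factor genes, so the counts of these lists share genes. Calb2, the gene of calretinin and a relative of Calb1, was at 42.3 ± 4.36 FPKM in cKO and 36.5 ± 1.601 FPKM in control libraries (log2 fold change 0.20, limma adjusted p = 0.265). Ocm, the gene of oncomodulin and the closest relative of Pvalb here, stood at 0.0624 to 0.127 FPKM in the 6 libraries. Pcp4l1, a relative of Pcp4, averaged 17.3 ± 3.54 FPKM in cKO and 23.2 ± 2.98 FPKM in control libraries, a log2 fold change of -0.41 (limma adjusted p = 0.260). Its groups were apart only just, in the direction opposite to that of Pcp4, with cKO 1 at 19.926 FPKM and control 3 at 19.930 FPKM. Car2, an active carbonic anhydrase that glia also express, averaged 25.2 ± 4.77 FPKM in cKO and 14.6 ± 3.81 FPKM in control libraries (log2 fold change 0.76, SE 0.19, limma adjusted p = 0.125). Car11, from the same list, averaged 45.8 ± 2.87 FPKM in cKO and 40.1 ± 1.78 FPKM in control libraries (log2 fold change 0.18, limma adjusted p = 0.211), with the groups apart.

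**Figure D4:**
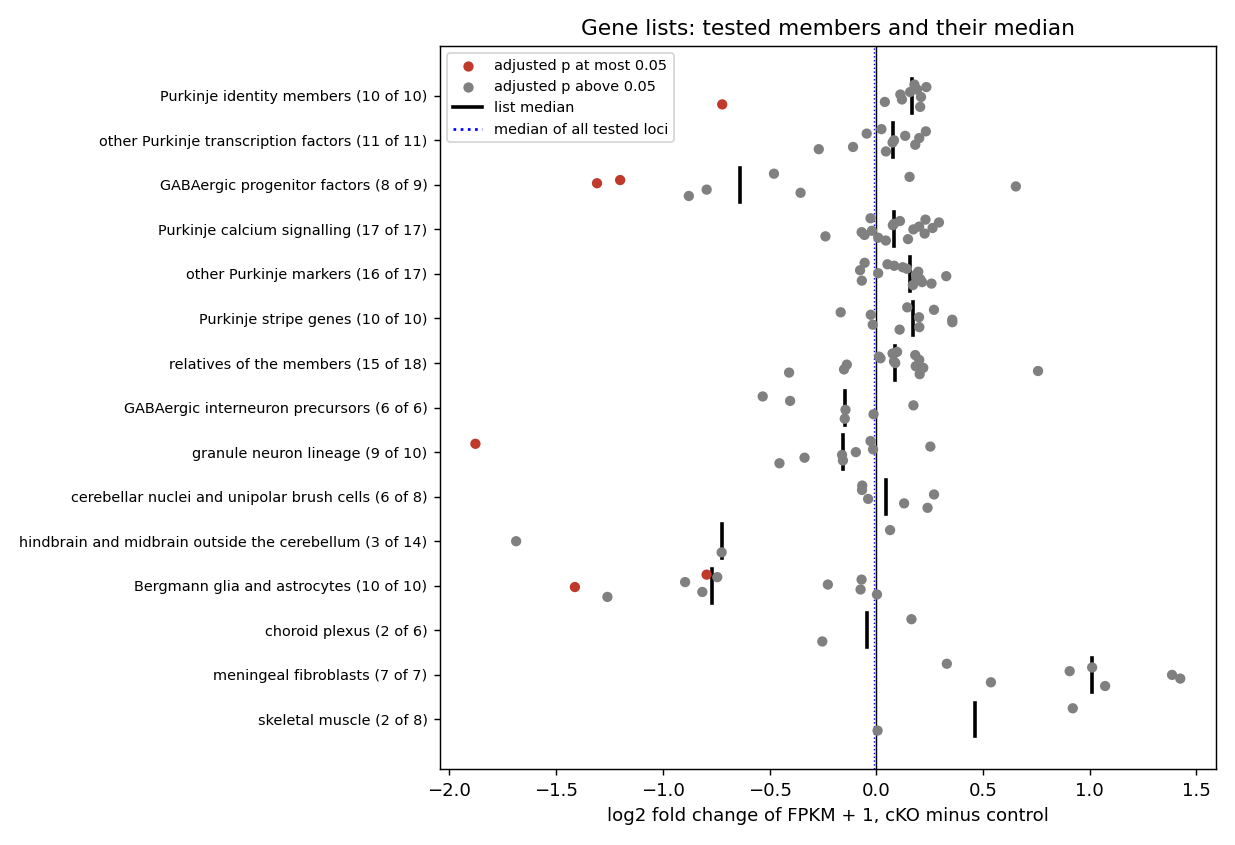
Log2 fold change of FPKM + 1 (x axis, cKO minus control) of each tested gene in 15 lists, with the number tested of the number listed in brackets; the black bar is the list median, the dotted line the median of all tested loci, and red marks an adjusted p of at most 0.05. The medians of the 4 further Purkinje lists lie between 0.0765 and 0.173 with no gene past the threshold, and the Bergmann glia and astrocyte list has its median at -0.77.

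Of 9 genes of the progenitors from which Purkinje cells and other GABAergic neurons descend, 8 were tested and 2 fell, where 0.331% of all tested loci were called lower: Prdm13, a transcriptional regulator of those progenitors, at 2.64 ± 0.389 FPKM in cKO and 8.05 ± 1.33 FPKM in control libraries (limma adjusted p = 0.0146), and Kirrel2, an adhesion gene that labels them, at 5.04 ± 1.30 FPKM in cKO and 12.6 ± 0.748 FPKM in control libraries (adjusted p = 0.0360). The list median was -0.637, against -0.0095 over all tested loci, with 6 of the 8 negative and Olig2 and Dll1 positive. This list was chosen with earlier results of these data known, so the share beside it is description and no test. Ptf1a was at 1.57 ± 0.684 FPKM in cKO and 3.66 ± 0.792 FPKM in control libraries, not past the threshold (adjusted p = 0.124) but with the groups apart. Olig2, which the same progenitors and the oligodendrocyte lineage express, was at 33.3 ± 4.10 FPKM in cKO and 20.97 ± 4.24 FPKM in control libraries (adjusted p = 0.103, and 0.0430 with small-RNA loci left out, where it passed as higher).

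Markers of other cells that the tissue could hold were measured beside the Purkinje genes, and their part in the values above was not tested. Their lists were also chosen with earlier results of these data known, so shares of all loci beside them are description and no test. Of 10 Bergmann glia and astrocyte genes 9 were negative (median -0.77), where 47% of all tested loci were positive. Gpr37l1 and S100b fell (limma adjusted p = 0.0110 and 0.0235), where 0.331% of all tested loci were called lower. The summed level of the list was 2033 to 2263 FPKM in cKO and 2529 to 2647 FPKM in control libraries. Most of each sum was Fabp7, the positive gene, at 1581 ± 29.1 FPKM in cKO and 1577 ± 49.97 FPKM in control libraries. The negative genes were not alike: Sox9 and Hopx had log2 fold changes of only -0.069 and -0.074. Of 10 genes of the granule neuron lineage 9 were tested, 1 positive and 8 negative (median -0.156). Mfap4 fell (limma adjusted p = 0.0235) and none rose, with sums of 691 to 781 FPKM in cKO and 787 to 900 FPKM in control libraries. Mfap4 itself was at 18.5 ± 5.31 FPKM in cKO and 69.9 ± 13.1 FPKM in control libraries. It counts in these sums, which lie apart only with Mfap4 included. Of 6 genes of GABAergic interneuron precursors none passed, with 1 positive, 5 negative and a median of -0.146. Kit, which molecular layer interneurons express, was at 21.3 ± 2.00 FPKM in cKO and 28.5 ± 1.14 FPKM in control libraries (limma adjusted p = 0.0753). Sorcs3 was higher in all cKO libraries (log2 fold change 0.17), and Pax2 was at 16.7 ± 1.30 FPKM in cKO and 18.6 ± 2.14 FPKM in control libraries. Sums of that list were 66.7 to 76.4 FPKM in cKO and 76.7 to 88.3 FPKM in control libraries. Of 8 genes of cerebellar nuclei and unipolar brush cells 6 were tested and none passed (median 0.0462), with sums of 57.7 to 76.2 FPKM in cKO and 62.7 to 67.8 FPKM in control libraries, and Tbr1 was at 2.34 ± 0.0506 FPKM in cKO and 1.84 ± 0.199 FPKM in control libraries.

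Of the genes listed for the hindbrain and midbrain outside the cerebellum, all but Otx2, Dbh and Th averaged under 1 FPKM in both groups. Of 14 such genes 3 were tested and none passed, the sums were 11.4 to 22.99 FPKM in cKO and 19.3 to 27.4 FPKM in control libraries, and most of each sum was Otx2, at 16.9 ± 5.87 FPKM in cKO and 15.9 ± 4.88 FPKM in control libraries. Hoxa5 was listed at 0 in all 6 libraries. Dbh, a gene of noradrenergic neurons, was at 0.561 ± 0.250 FPKM in cKO and 4.38 ± 2.43 FPKM in control libraries (limma adjusted p = 0.0839). Of 8 skeletal muscle genes, tissue in which Pvalb is abundant, 2 were tested, with sums of 9.19 to 10.98 FPKM in cKO and 7.29 to 7.89 FPKM in control libraries. Ckm, the muscle creatine kinase, was at most 0.0698 FPKM in any library, and Myh8, a perinatal myosin, was at 4.36 ± 1.48 FPKM in cKO and 1.83 ± 0.786 FPKM in control libraries. Tnnt3, a fast skeletal troponin, was at 0.534, 0.422 and 0.399 FPKM in cKO, against 1.61, 1.19 and 0.502 FPKM in control libraries, with the groups overlapping, and was not tested. All 7 genes of meningeal fibroblasts were positive, where 47% of all tested loci were, and none was past the threshold. Their sums were 16.3 to 61.2 FPKM in cKO and 7.05 to 27.2 FPKM in control libraries. Of 6 choroid plexus genes 2 were tested and neither passed, with sums of 3.52 to 14.9998 FPKM in cKO and 3.19 to 8.53 FPKM in control libraries. With small-RNA loci left out, further genes called lower in these lists of other cells were Kit (limma adjusted p = 0.0324), Dbh (0.0286), Vim (0.0153) and Aqp4 (0.0276). Ptgds, a meningeal gene (0.0261), was called higher, and Gpr37l1, S100b and Mfap4 passed in both fits. Over all loci, the fit without small RNAs called 1.51% lower and 0.957% higher.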

How the data were processed

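Per the labels' protocols, flash-frozen cerebellum gave Trizol-extracted total RNA, from which TruSeq RNA libraries were made. The submitters' processing notes name CASAVA, TopHat, Cufflinks and mm10; versions, annotation and strand setting were not given in the sources used here. Deposited values were read as FPKM from Cufflinks and its locus names, since no label names the unit. Read depth is unknown, which limits the precision of low values. For cKO 1 the title gives the number 1 and the description 3; titles were followed.

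Values were taken as log2(FPKM + 1), and 13612 of 23793 loci with 1 FPKM or more in 3 or more libraries were fitted with limma 3.58.1 in R 4.3.3 (trend on mean expression, two-sided, Benjamini-Hochberg over all loci, threshold 0.05), which was tested on simulated data. Coordinates are GENCODE M21 (GRCm38). Every Purkinje gene was named, and from each list up to 4 genes with the smallest p and any past the threshold. Zeb2 and the larger relatives were also in the rule. Lhx1, Plcb4, Shh, Ppp1r17, Ocm, Hoxa5, Ckm, Tnnt3, Dll1, Fabp7, Sox9, Hopx, Xist, Eif2s3y, Pet100 and Igsf5 were added after their values were seen. The genes and lists were chosen with earlier results of these data known. Processing sets were read from ratios of values under 0.1 FPKM. Alternatives were a block, covariates, left-out libraries, pseudocounts, filters, scalings, locus classes, variance models and thresholds. Figures used Python 3.11.15, pandas 2.3.3 and matplotlib 3.10.9.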

Additional observations from a re-analysis of the deposited data

How the results depend on the processing

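Of 219 results of single Purkinje genes under the alternatives, 207 kept direction and side of the threshold, and 10 lost the Pvalb call. Pcp2 turned to -0.0063 with sample weights and ranged from -0.031 (without control 1) to 0.132 with 1 library left out. The block, covariates, filters, locus classes, robust variance and thresholds leave the log2 fold change itself unchanged. Direction could not turn under those, so the 207 do not measure how robust the directions are. The count of Purkinje genes called lower, 1 in the reported fit, was 0 with the replicate number as a block (Pvalb adjusted p = 0.147), with the deposit as a covariate (0.0848), with no filter on low values (0.0841), at a threshold of 0.01 and, as Pvalb was then not tested, for loci averaging 5 FPKM or more, where the count of genes apart and lower was also 0. It was 0 to 0 with 1 library left out, while higher calls were 0 under all of these. The count of genes apart and higher, 6 in the reported fit, was 5 with upper quartile scaling and with quantile normalization. With 1 library left out it was 6 to 8, where fewer values have to lie apart. Over the 21 alternatives that tested Pvalb, its adjusted p ranged from 0.0080 to 0.147. Same-numbered libraries showed no shared deviation (r = -0.027, 0.037 and 0.049, against -0.122 to 0.0915 for other pairs). With 3 libraries a group, and cKO 1 numbered differently in its title and description, this cannot exclude a pairing in the design.

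Loci called lower, 45 in the reported fit, and higher, 33, were 11 and 4 with the block, 14 and 8 with the deposit, 16 and 12 with no filter, 22 and 8 for loci averaging 5 FPKM or more, 202 and 128 with small-RNA loci left out, 206 and 130 with robust variance, 13 and 7 at a threshold of 0.01 and 251 and 158 at 0.10. With 1 library left out they were 2 to 28 and 1 to 23. The Zeb2 locus passed with small-RNA loci left out (log2 fold change -0.77, adjusted p = 0.0445). The cause of these shifts was not tested. Scaling moved the median of all loci by less than 0.1, and the unknown depth limits what low values such as those of Pvalb can show.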
